A study of Mus musculus with 9 samples.

Results

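The data are RIPiT-seq libraries, which sequence the RNA recovered with a tagged protein, from 3 mouse embryonic stem cell (ESC) lines, and the genes described here are 34 mitosis and G2/M genes chosen by name for their textbook roles in entering, carrying out or leaving mitosis. All 34 symbols were found among the 24132 symbols of the deposited table. One line carried an empty vector and no tagged WDR5, the second carried FLAG-HA-tagged wild-type WDR5 (WT), and the third carried FLAG-HA-tagged WDR5 with the F266A substitution, a change in the RNA-binding surface of WDR5, a subunit of histone H3 lysine 4 methyltransferase complexes. Both tagged proteins were human WDR5. The F266A construct was also shortened at its N terminus, which the paper states leaves function and complex formation unaffected. The substitution and this truncation cannot be told apart here. The 3 lines shared a 129/B6 F1 hybrid ESC origin, feeder-free culture with LIF and lentiviral transduction. The tagged lines came from clones picked for tagged protein near the endogenous level, so that the construct and the clone cannot be told apart. Whether all libraries of a line came from 1 clone is not stated. From each line, 2 immunoprecipitates (IPs), made after formaldehyde crosslinking by FLAG and then HA purification, and 1 input of total RNA were sequenced, and nothing in the labels says that the 2 IPs came from separate cultures, so p-values measure the spread between these libraries, which may be technical.

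Mitosis follows a fixed order of events. Cyclins of the A and B types bind their kinase and start it, the kinetochore complexes built on centromeres capture microtubules, the spindle checkpoint holds back the anaphase-promoting complex until every chromosome is attached, and the central spindle then guides the division of the cytoplasm. Many of these genes are transcribed together late in the cell cycle, through promoter elements known as the CHR (cell cycle genes homology region) and the CCAAT box, and ESCs, which divide fast with short gap phases, express them at high levels. In RNA from a mixed culture, a smaller share of cells in mitosis and less of an mRNA in each cell cannot be told apart.

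The promoters were searched for both elements. Of the 34 genes, 28 had a promoter in the RefSeq table for GRCm38.p6, which covers 250 bases before to 50 bases after the annotated start, and those of Ccna2, Cdc25c, Aurkb, Incenp, Tpx2 and Kif20a were not used here. The CHR core TTTGAA, searched on both strands and therefore also read as TTCAAA, stood in at least 1 window of 20 of the 28 genes (71.4%) and of 20.2% of the 27025 symbols in the table, counted in the same way where a gene has several starts. CCAAT, also read as ATTGG, stood in 20 of the 28 genes and in 41.1% of all symbols. Both stood in 17 of the 28 (60.7%) and in 8.97% of all symbols. The windows of Birc5, Mad2l1, Nuf2, Nusap1 and Pttg1 held neither, which says only that these letters are not in these windows. The 250 upstream bases are shown, in capitals where either element was found on either strand, for 3 genes that hold both and for Mad2l1 and Birc5, on which the comparison of the lines turns. They lie at chr2:164769679-164769928 on the plus strand (Ube2c), chr4:118437344-118437593 on the minus strand (Cdc20), chr11:99024190-99024439 on the minus strand (Top2a), chr6:66534971-66535220 on the plus strand (Mad2l1) and chr11:117848987-117849236 on the plus strand (Birc5).
Ube2c: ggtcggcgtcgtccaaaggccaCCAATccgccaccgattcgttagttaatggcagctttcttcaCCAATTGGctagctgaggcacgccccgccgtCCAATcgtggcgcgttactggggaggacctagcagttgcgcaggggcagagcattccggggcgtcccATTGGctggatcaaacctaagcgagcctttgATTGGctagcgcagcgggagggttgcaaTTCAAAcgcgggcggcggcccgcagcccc
Cdc20: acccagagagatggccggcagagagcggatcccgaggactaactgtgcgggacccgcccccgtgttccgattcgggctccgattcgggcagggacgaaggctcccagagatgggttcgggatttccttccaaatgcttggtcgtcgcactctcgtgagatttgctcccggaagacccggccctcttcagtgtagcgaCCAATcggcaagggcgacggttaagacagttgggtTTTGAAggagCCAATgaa
Top2a: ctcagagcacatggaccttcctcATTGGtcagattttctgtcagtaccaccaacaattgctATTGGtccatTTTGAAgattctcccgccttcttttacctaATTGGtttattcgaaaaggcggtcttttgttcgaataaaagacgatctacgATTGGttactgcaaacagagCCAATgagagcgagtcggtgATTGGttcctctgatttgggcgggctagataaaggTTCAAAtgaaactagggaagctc
Mad2l1: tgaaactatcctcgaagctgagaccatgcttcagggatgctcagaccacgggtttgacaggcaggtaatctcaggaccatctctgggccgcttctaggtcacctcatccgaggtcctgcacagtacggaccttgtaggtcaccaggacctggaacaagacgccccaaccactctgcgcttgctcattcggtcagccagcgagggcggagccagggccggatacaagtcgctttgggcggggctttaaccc
Birc5: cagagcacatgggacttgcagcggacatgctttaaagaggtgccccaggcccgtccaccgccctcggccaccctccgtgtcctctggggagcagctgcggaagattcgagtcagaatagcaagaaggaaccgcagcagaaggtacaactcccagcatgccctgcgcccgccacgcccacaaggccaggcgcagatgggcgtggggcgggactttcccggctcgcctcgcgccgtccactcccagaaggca
In Cdc20 the CHR core began 18 bases before the annotated start, in Top2a the nearer of a pair began 23 bases before it, and in Ube2c it began 29 bases before it. The CCAAT letters and their complement overlap at 1 place in Ube2c, and no other overlap of the motifs is present in the sequences shown. A match is a description of the sequence and was not set against any measurement of transcription.

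The libraries were deep enough to measure every one of these genes. Read depth, estimated from the value of 1 read in the RPKM (reads scaled to the length of the transcript and to the mapped reads), was 37800000 to 50500000 mapped reads in the inputs and 13300000 to 27400000 in the IPs. At that depth the median gene of the 34 rested on 407 to 1256 reads in a library, and the lowest value, that of Pttg1 in empty vector IP 2, on an estimated 91.8 reads. Reads that fell on annotated genes made up 20.1 to 22.6% of the inputs and 27.2 to 29.5% of the IPs, a difference that enters every comparison of IP with input. All 34 genes passed the filter on low values, an RPKM of 1 or more in 2 or more libraries, and were tested among 9787 genes. The ESC label held, since the 12 pluripotency markers were all measured, with a summed RPKM of 555 to 879 in every library, whereas fibroblast markers summed to at most 1.64, with Col3a1, Lum and Dcn at 0.

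One library stood apart from its label. F266A IP 1 held almost no RNA of the Y-linked genes Ddx3y, Uty and Eif2s3y, with a summed RPKM of 0.0383, against 4.43 in the F266A input and 7.21 in F266A IP 2. The WT libraries were also low, between 0.182 and 0.324, and the empty vector libraries lay between 7.41 and 9.48. The 20 primitive endoderm markers, of which 11 passed the filter and Afp and Ttr were at 0 throughout, summed to 79.3 in the F266A input and 101 in F266A IP 2, but to 39.4 in F266A IP 1, within the 35.8 to 45.9 of the other 2 lines. Most of that sum came from Sparc, Lamc1, Lamb1 and Lama1. The other 7 markers tested, such as Gata4 at 0.695, were above every empty vector and WT library in F266A IP 1 too. The scores of F266A IP 1 were nonetheless taken against the F266A input, from which it differed in these sums. Results on the F266A line are therefore also given without F266A IP 1.

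As a group, the 34 mRNAs were abundant and close to equal in total among the inputs. Their summed RPKM was 350 in the empty vector input, 358 in the WT input and 341 in the F266A input. In the IPs the sum was higher in each line, at 506 and 475 for the empty vector, 458 and 465 for WT, and 472 and 498 for F266A. Mean RPKM over the 9 libraries, a level per length, ran from 2.69 for Nuf2 to 42.9 for Ube2c, and Nuf2 lay above 45.0% of the genes tested. The plot of levels by role shows every gene in every library.

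**Figure D1:**
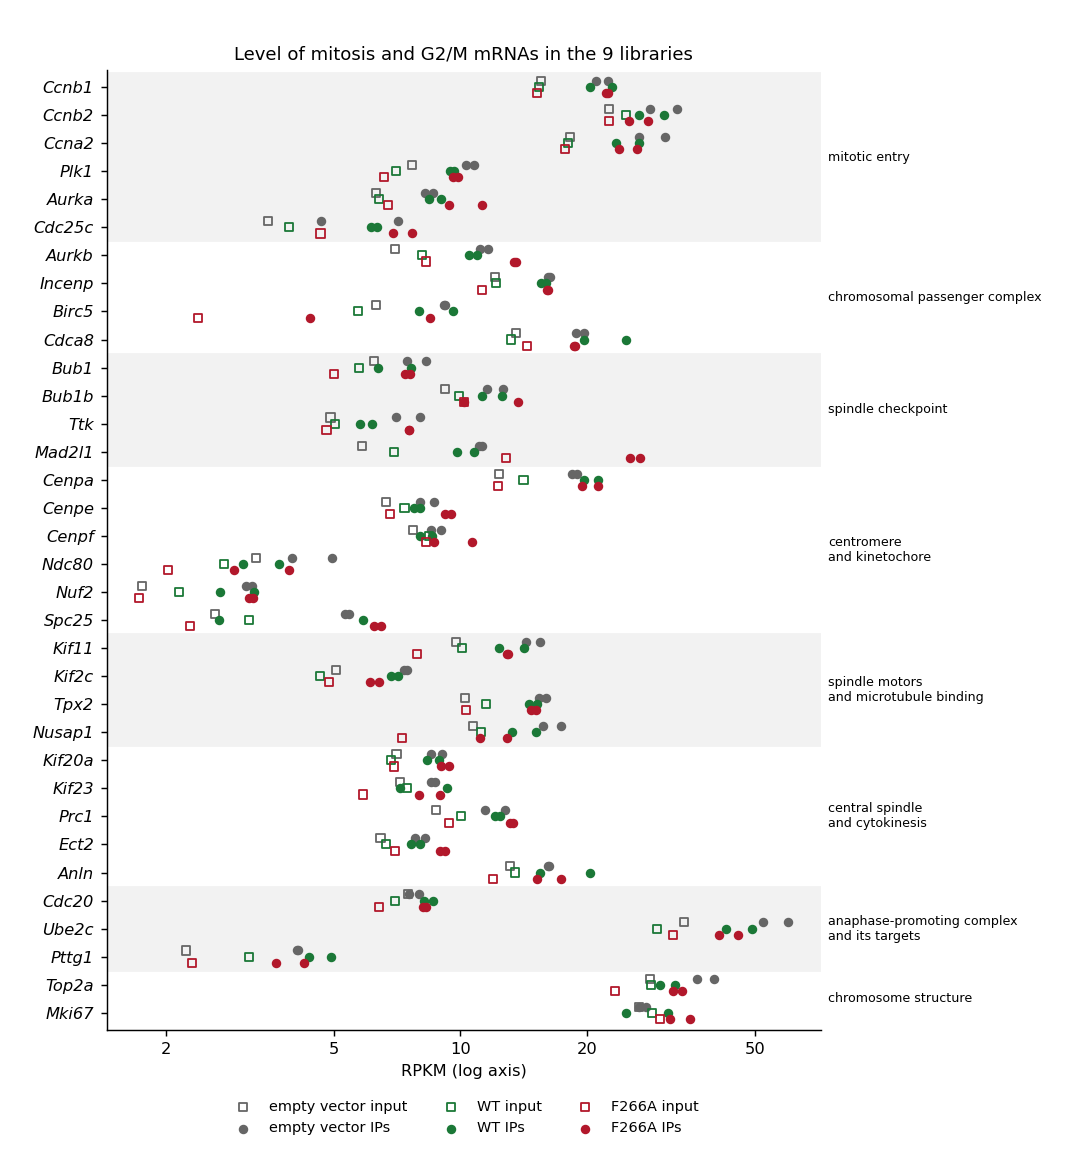
RPKM (log axis) of each of the 34 genes in the 9 libraries, grouped by role, with open squares for the 3 inputs and filled circles for the 6 IPs. Ube2c, Top2a and Mki67 are highest and Nuf2, Ndc80 and Pttg1 lowest, most IPs lie to the right of the inputs, and Mad2l1 in the F266A line stands to the right of the other 2 lines in both fractions.

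Among genes of mitotic entry, Ccnb2, the highest of the group and a B-type cyclin, had an RPKM of 22.6 in the empty vector input, with IPs at 32.7 and 28.2, 24.7 in the WT input and 26.6 and 30.3 in its IPs, and 22.5 in the F266A input and 25.1 and 27.9 in its IPs. The other B-type cyclin, Ccnb1, had an RPKM of 15.5, 15.3 and 15.2 in the empty vector, WT and F266A inputs, and its IPs lay at 22.4 and 21.0 (empty vector), 22.9 and 20.3 (WT) and 22.1 and 22.4 (F266A). The inputs of Ccnb1 differed by a ratio of only 1.02 from lowest to highest, and all 6 IPs lay above all 3 inputs. Plk1, the polo-like kinase that acts from mitotic entry to cytokinesis, had an RPKM of 7.69, 7.05 and 6.58 in the 3 inputs in the same order, with IPs at 10.8 and 10.3, 9.68 and 9.44, and 9.58 and 9.89. Its pairs of IPs were close in every line and did not overlap with the inputs. Of the other entry genes, Ccna2 (cyclin A2) averaged 23.4, Aurka (the centrosomal Aurora kinase) 8.26 and Cdc25c (a phosphatase that activates the mitotic kinase) 5.65. Sequence copies at 90% identity or more over at least 200 bases elsewhere in mm9 covered 76.4% of the Ccnb1 mRNA and 97.4% of the Plk1 mRNA, so the division of reads between the gene and its copies is uncertain for them, as it is for Cdc20 (96.7%), Prc1 (66.5%), Mad2l1 (59.8%) and Kif2c (50.1%).

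The chromosomal passenger complex, which corrects wrong attachments and then moves to the central spindle, held 4 genes. Cdca8 (Borealin), the highest of them, had an RPKM of 13.5, 13.2 and 14.4 in the empty vector, WT and F266A inputs, and IPs at 19.7 and 18.8, 24.8 and 19.7, and 18.6 and 18.7. WT IP 1 was the highest library of Cdca8 and WT IP 2 was level with empty vector IP 1. Aurkb, the kinase of the complex, had an RPKM of 6.98, 8.09 and 8.27 in the inputs, and IPs at 11.1 and 11.6, 10.9 and 10.5, and 13.4 and 13.5. The scaffold Incenp averaged 14.6 and ranged from 11.2 to 16.3. Birc5 (survivin) behaved differently from its partners and is given with the comparison of the lines.

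At the centromere, Cenpa, the histone H3 variant that marks it, was the highest gene of its group, with an RPKM of 12.4, 14.1 and 12.3 in the empty vector, WT and F266A inputs and 18.9 and 18.4, 19.7 and 21.2, and 19.4 and 21.2 in the IPs. All 6 IPs of Cenpa were above all 3 inputs. The NDC80 complex, which binds microtubules at the kinetochore, was represented by 3 subunits with low levels, namely Ndc80 (mean RPKM 3.39), Nuf2 (2.69) and Spc25 (4.45). Nuf2 had an RPKM of 1.75, 2.15 and 1.73 in the inputs and of 3.20 and 3.09, 3.23 and 2.68, and 3.21 and 3.15 in the IPs. Spc25 lay at 2.61, 3.14 and 2.28 in the inputs and at 5.31 and 5.45, 5.88 and 2.67, and 6.22 and 6.48 in the IPs, so that WT IP 2 alone of the IPs fell among the inputs. The large kinetochore proteins Cenpe, a motor, and Cenpf averaged 7.99 and 8.64. Among checkpoint genes, the kinases Bub1 and Ttk averaged 6.85 and 6.32 and the checkpoint protein BubR1, encoded by Bub1b, averaged 11.2.

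Of the genes that act on spindle microtubules, Tpx2, which nucleates them and activates Aurora A, was the highest, with an RPKM of 10.3, 11.5 and 10.3 in the empty vector, WT and F266A inputs and 16.0 and 15.3, 15.2 and 14.5, and 14.7 and 15.1 in the IPs. Kif11, the motor that pushes spindle poles apart, had an RPKM of 9.77, 10.1 and 7.90 in the inputs and 14.3 and 15.5, 14.2 and 12.4, and 12.9 and 13.0 in the IPs. For both genes the IPs lay above all inputs and the pairs of the lines overlapped or nearly met. The depolymerising kinesin Kif2c averaged 6.20. In the group of the central spindle and cytokinesis, Anln (anillin, of the contractile ring) was the highest, with inputs at 13.1, 13.5 and 11.97 and IPs at 16.1 and 16.3, 15.5 and 20.4, and 15.2 and 17.4. The microtubule bundler Prc1 averaged 11.5, the kinesins Kif20a and Kif23 averaged 8.22 and 7.91, and Ect2, the exchange factor that activates RhoA, averaged 7.77.

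Late mitosis supplied the highest gene of all. Ube2c, the ubiquitin-conjugating enzyme of the anaphase-promoting complex, had an RPKM of 33.96, 29.3 and 31.9 in the empty vector, WT and F266A inputs and of 60.0 and 52.3, 49.3 and 42.6, and 41.1 and 45.7 in the IPs. Its target Pttg1 (securin, which holds back separase) was among the lowest, with inputs at 2.23, 3.14 and 2.30 and IPs at 4.09 and 4.11, 4.38 and 4.94, and 3.65 and 4.25. Both genes had all 6 IPs above all 3 inputs. Cdc20, the activator of the complex, averaged 7.74. Of the chromosome structure genes, Top2a (topoisomerase II alpha) had inputs at 28.2, 28.4 and 23.2 and IPs at 40.0 and 36.4, 29.8 and 32.3, and 32.0 and 33.6. Mki67, the proliferation antigen that coats mitotic chromosomes, had inputs at 26.5, 28.5 and 29.8 and IPs at 27.6 and 26.6, 24.7 and 31.1, and 31.4 and 35.1. Its inputs and IPs overlapped, and WT IP 1 was its lowest library. Exons of 7 of the 34 genes overlap another gene in GENCODE M1, 6 of them on the opposite strand (Ccna2, Cdca8, Nusap1, Kif20a, Cdc20 and Ube2c) and Top2a on the same strand, and whether the counting used strand is not given in the sources used here.

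The first comparison asked which of these mRNAs were higher in the IPs than in the input of the same line. On the RPKM as deposited, 32 of the 34 genes rose and 0 fell (limma, Benjamini-Hochberg adjusted p under 0.05), against a background of 64.3% of all 9787 genes, of which 63.8% rose and 0.511% fell. Differences are on the log2 (RPKM + 1) scale, which understates the change of low genes. The median difference of the 34 genes was 0.43 and that of all genes 0.30. The exceptions were Cenpf, at 0.11 (SE 0.08, adjusted p = 0.25), and Mki67, at 0.05 (SE 0.09, adjusted p = 0.632). Most of the rise was shared with the transcriptome, and with each library centred on its own median 2 of the 34 rose, Mad2l1 by 0.46 (adjusted p = 0.014) and Cenpa by 0.27 (adjusted p = 0.038), and 0 fell, against 4.67% and 4.32% of all genes. After centring, which by construction puts the differences of all genes around 0, 26 of the 34 differences were positive and 8 negative, with a median of 0.12. Under quantile normalization, and with the reads on genes brought to an equal share in every library, the genes called were Mad2l1, which rose, and Mki67, which fell by 0.42 and by 0.33. All 34 differences were positive as deposited, and 8 turned negative under all 3 scalings, Ccnb2, Bub1b, Cenpe, Cenpf, Kif23, Ect2, Cdc20 and Mki67. Quantile normalization turned 14 in all, among them Anln, Top2a, Incenp, Bub1, Kif20a and Prc1, and the equal share of reads 11, with Anln, Top2a and Kif20a beside the 8.

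Seen library by library, the IP score, log2 (RPKM + 1) of an IP minus that of its input, had a median over the 34 genes of 0.49 and 0.40 for the empty vector IPs, 0.35 and 0.34 for WT, and 0.46 and 0.51 for F266A. The medians over all genes tested were 0.27 and 0.26, 0.27 and 0.27, and 0.39 and 0.35 in the same libraries. The empty vector line, which has no tagged protein and gives the background of the purification, had medians above those of both WT IPs and close to those of the F266A IPs. The scores were above 0 for 34, 34, 31, 33, 33 and 34 of the 34 genes, and above the median of the library for 29, 26, 19, 23, 22 and 27 of them, in the order empty vector, WT and F266A. Of all genes tested, 87.7, 88.0, 85.5, 89.8, 89.2 and 96.3% were above 0 in the same libraries, so a score above 0 was common to most genes.

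**Figure D2:**
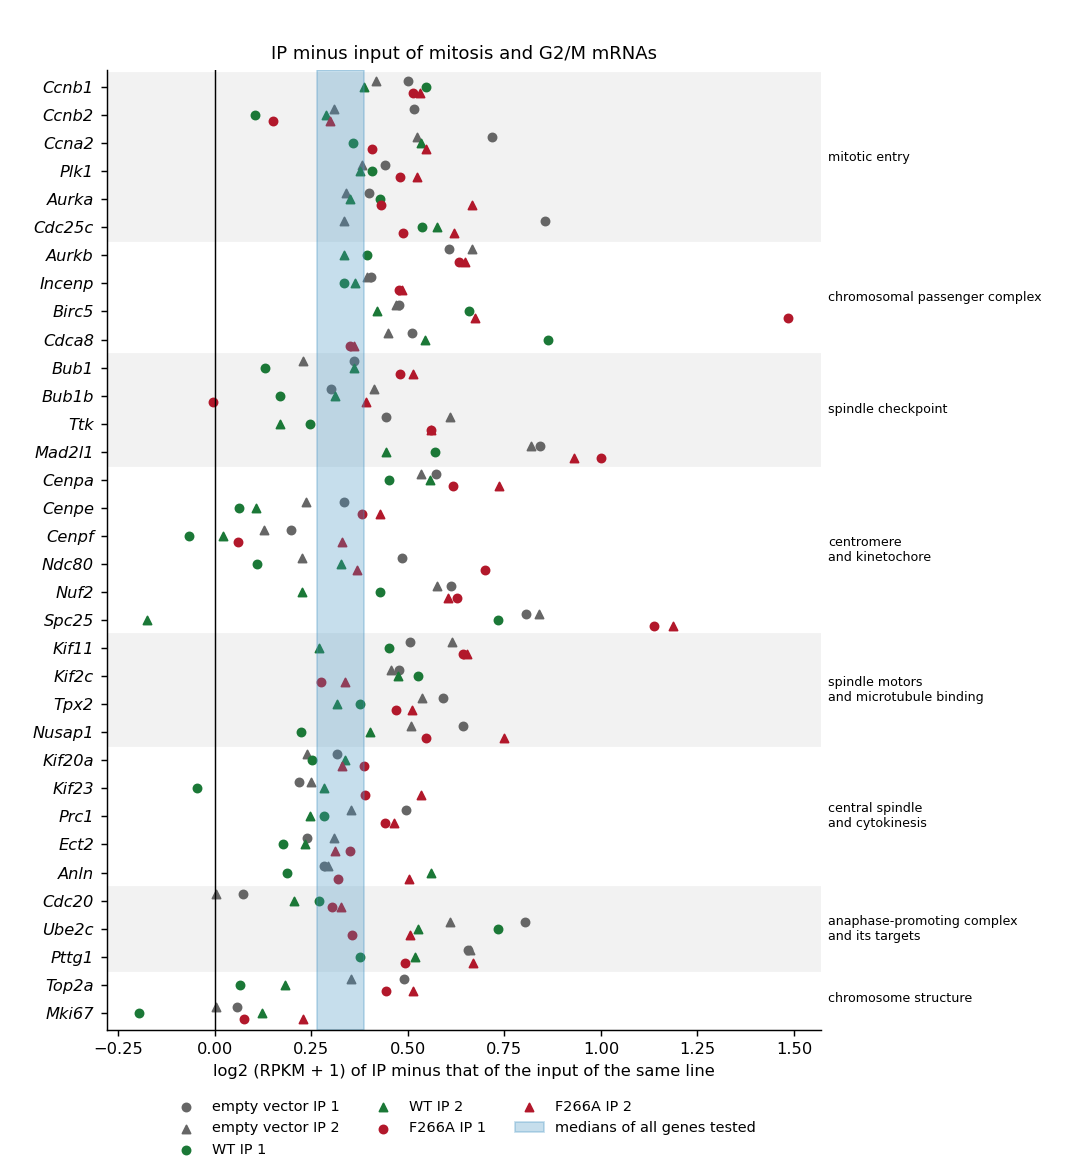
IP minus input on the log2 (RPKM + 1) scale for each of the 34 genes in the 6 IPs, grouped by role, with colours for the lines, circles for IP 1 and triangles for IP 2. The blue band spans the medians of all genes tested in the 6 IPs. Mad2l1, Spc25 and Birc5 lie farthest to the right, Mki67 and Cenpf lie at or near 0, and the empty vector IPs lie among the others.

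The highest mean scores belonged to Mad2l1, the checkpoint protein that inhibits Cdc20, at 0.77 ± 0.22 (SD, n = 6 IPs), to Spc25 at 0.75 ± 0.49, to Birc5 at 0.70 ± 0.40, to Ube2c at 0.59 ± 0.16 and to Cenpa at 0.58 ± 0.10. The scores of Mad2l1 were 0.84 and 0.82 for the empty vector, 0.57 and 0.44 for WT, and 0.9995 and 0.93 for F266A. They were above the median of the library in all 6 IPs, and lowest in the WT pair. The score of Spc25 varied most in the WT line, at 0.73 in WT IP 1 and -0.18 in WT IP 2, and was 0.81 and 0.84 in the empty vector IPs and 1.14 and 1.19 in the F266A IPs. Birc5 owed its place to 1 library, F266A IP 1, at 1.49, since its other 5 scores lay between 0.42 and 0.67. Without F266A IP 1 the fitted difference of Birc5 was 0.55, against 0.70 with it.

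By role, the anaphase-promoting complex and its targets had the highest median score, 0.56, although it held both Ube2c (0.59) and Pttg1 (0.56) and, near the bottom, their partner Cdc20 (0.20). Cdc20 was below the median of all genes in all 6 IPs. The chromosomal passenger complex followed with 0.53, with Aurkb at 0.55, Cdca8 at 0.51 and Incenp at 0.41. The spindle motors had 0.49, and their 4 genes were the most alike, from 0.42 for Kif2c to 0.52 for Kif11. Mitotic entry had 0.46, in which Cdc25c was at 0.57 and the B-type cyclins were unequal, Ccnb1 at 0.48 and Ccnb2 at 0.28. The centromere and kinetochore group had 0.44 and ran from Spc25 to Cenpf. The checkpoint had 0.39 and ran from Mad2l1 down to Bub1b at 0.26, and the central spindle and cytokinesis genes had 0.31, from Ect2 at 0.27 to Prc1 at 0.38. Top2a (0.34) and Mki67 (0.05), the chromosome structure genes, had the lowest median, 0.19.

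The order of the scores went with mRNA length. Among the 34 genes, the Spearman correlation of the mean score with the length of the longest mRNA in GENCODE M1 was -0.58, and over the 8563 tested genes with a length it was -0.37, as a description across genes, which share libraries and depth. In single libraries it lay between -0.34 and -0.61 for the 34 genes. Genes with an mRNA under 2 kb had a median score of 0.55 (10 of the 34) against 0.38 for all such genes, those of 2 to 4 kb 0.43 (16 of the 34) against 0.32, and those over 4 kb 0.31 (8 of the 34) against 0.21. The 3 longest, Cenpf with 11.1 kb, Mki67 with 10.1 kb and Cenpe with 7.81 kb, were among the 4 lowest scores together with Cdc20, whose mRNA has 1.79 kb. Cdc20 and Ccnb2, with 1.54 kb, were the 2 short mRNAs below the median of their length class. The part of length in the scores was not tested.

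**Figure D3:**
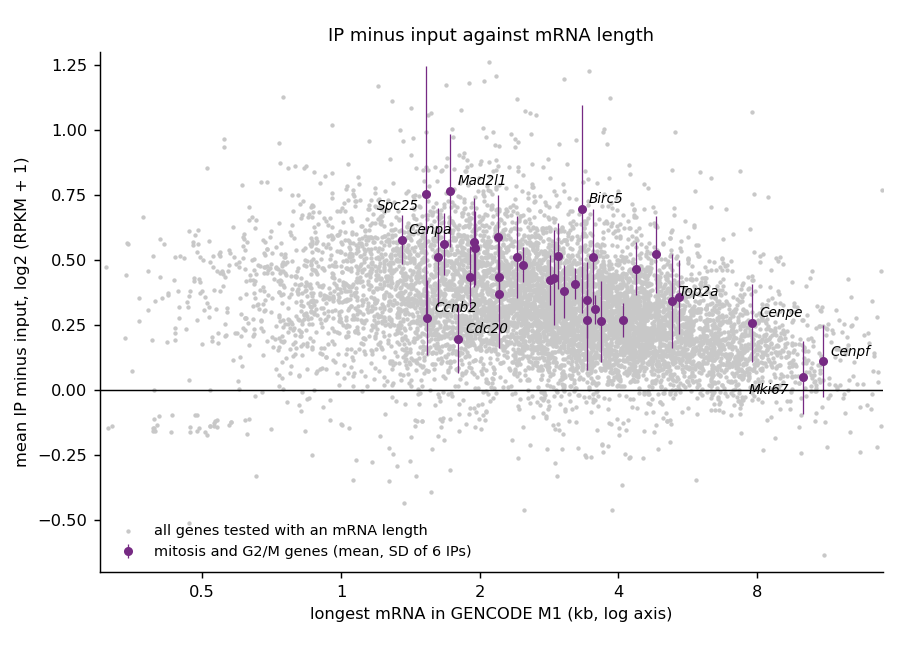
Mean IP minus input over the 6 IPs, on the log2 (RPKM + 1) scale, against the length of the longest mRNA in kb (log axis). The 34 genes are in purple with the SD of 6 IPs. All tested genes with a length, the 34 included, are in grey, and 33 of them lie outside the axes. Scores are lower for longer mRNAs in both, Mki67 and Cenpf are the longest and lowest of the 34, and Cdc20 and Ccnb2 lie low among short mRNAs.

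The lines were compared next, first by level, with the fraction as a covariate. The level of a line rests on 2 IPs and 1 input, so it holds more recovered RNA than total RNA and is not expression alone. Between the F266A and the empty vector line 3 of the 34 genes differed, 1 higher and 2 lower in F266A, or 8.82%, against 16.7% of all genes (5.45% higher and 11.3% lower). Mad2l1 had an RPKM of 5.84 in the empty vector input, with IPs at 11.3 and 11.1, 6.94 in the WT input and 10.8 and 9.79 in its IPs, and 12.8 in the F266A input and 26.6 and 25.3 in its IPs. Within each fraction the F266A libraries were above all others, and the F266A input was above every IP of the other lines. The gene lies at chr6:66485384-66491027 on the plus strand of mm9. On the RPKM + 1 scale of the fit, Mad2l1 was 2.15-fold higher in F266A than in the empty vector line (log2 difference 1.104, SE 0.10, limma adjusted p = 0.000298). In RPKM the ratio of the 2 inputs was 2.20. It was the one gene of the 34 that differed between WT and F266A, where WT was lower (log2 difference -1.10, limma adjusted p = 0.000771). The background there was 9.97% of all genes, with 7.25% higher and 2.72% lower in WT. Without F266A IP 1 these log2 differences were 1.05 and -1.05. The 2 comparisons share the F266A libraries.

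Nusap1, a microtubule-bundling protein at chr2:119444034-119476980 on the plus strand of mm9, had an RPKM of 10.7, 11.2 and 7.28 in the empty vector, WT and F266A inputs and of 17.3 and 15.7, 13.3 and 15.1, and 11.1 and 12.9 in the IPs. The F266A libraries were the lowest within each fraction. The log2 difference of F266A from the empty vector was -0.45 (SE 0.11, adjusted p = 0.0163), and without empty vector IP 1 it was -0.41 with an adjusted p of 0.0766. Without F266A IP 1 it was -0.42 (adjusted p = 0.0266). WT lay 0.34 above F266A, which did not pass (adjusted p = 0.0732). Ndc80 did not pass, at -0.38 against the empty vector (adjusted p = 0.0581), and was called without F266A IP 1. Its RPKM was 3.26, 2.75 and 2.02 in the inputs and 4.97 and 3.98, 3.04 and 3.70, and 3.91 and 2.90 in the IPs, so that the empty vector IPs lay above those of both other lines, while WT and F266A overlapped.

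Birc5, the survivin subunit of the chromosomal passenger complex and an inhibitor of apoptosis, lies at chr11:117710565-117717069 on the plus strand of mm9. Its RPKM was 6.31 in the empty vector input, with IPs at 9.18 and 9.13, 5.71 in the WT input and 9.58 and 7.97 in its IPs, and 2.38 in the F266A input with 8.47 in F266A IP 1 and 4.40 in F266A IP 2. F266A IP 1 lay among the IPs of the other lines and F266A IP 2 at 4.40 lay below every library but its own input. The log2 difference of F266A from the empty vector was -0.71 (SE 0.20, adjusted p = 0.0356), and without F266A IP 1 it was -0.999 (adjusted p = 0.000268). Leaving out other libraries lost the call, with an adjusted p of 0.116 without F266A IP 2, 0.083 without empty vector IP 1, 0.0818 without empty vector IP 2 and 0.0506 without WT IP 1. With the IPs alone the log2 difference was -0.51 (limma adjusted p = 0.272). Against WT the difference did not pass (0.63 higher in WT, adjusted p = 0.0732), but passed without F266A IP 1. The 3 other subunits did not pass in F266A against the empty vector, with differences of 0.22 for Aurkb, -0.04 for Incenp and -0.00209 for Cdca8, although Aurkb was called under quantile normalization (0.29, adjusted p = 0.035).

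**Figure D4:**
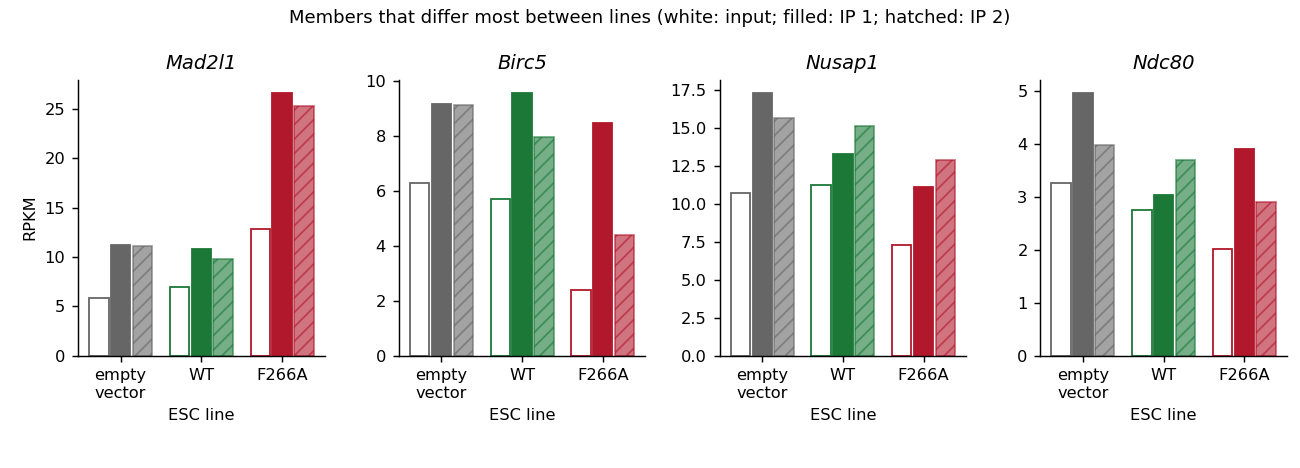
RPKM of Mad2l1, Birc5, Nusap1 and Ndc80 in the 9 libraries, with a white bar for the input, a filled bar for IP 1 and a hatched bar for IP 2 of each line, each axis starting at 0. Mad2l1 is higher in all 3 F266A libraries, Nusap1 is lowest in F266A within each fraction, and Birc5 is low in the F266A input and IP 2 but not in F266A IP 1.

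Other markers moved with the F266A line as well. Of the 11 primitive endoderm markers tested, 7 were higher in F266A than in the empty vector line. The sum of the 20 markers was high in the F266A input and IP 2, where Birc5 was low, and not in IP 1. Each of the 7 was nevertheless above all libraries of the other 2 lines in F266A IP 1 as well. Of the 12 pluripotency markers, 4 were lower in F266A (Klf4, Nanog, Pou5f1 and Esrrb), with a summed RPKM of 624 to 879 in the empty vector libraries, 592 to 756 in the WT libraries and 555 to 758 in the F266A libraries. The part of these markers in the results on Mad2l1, Nusap1 and Birc5 was not tested. Sequence copies, by the rule used above, covered 59.8% of the Mad2l1 mRNA, 23.9% of the Nusap1 mRNA and 22.5% of the Birc5 mRNA. The part of reads from such copies in these results was not tested either.

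Mad2l1 and Birc5 also stood out in the inputs alone, which are part of that fit. Each line had 1 input, so this comparison has no replicate and no test, and called means past 1.5-fold on the log2 (RPKM + 1) scale. Between the F266A and empty vector inputs Birc5 was lower by a log2 difference of -1.11 and Mad2l1 higher by 1.015, and the other 32 genes were within 1.5-fold, against 7.34% of all genes lower and 2.22% higher. Between the WT and F266A inputs the same pair was called, at 0.99 and -0.80 (background 8.06%). Between the WT and empty vector inputs 0 of the 34 were called (background 1.14%), with differences from -0.21 to 0.36. In the fit over all libraries WT and the empty vector also differed in 0 of the 34 genes (limma, background 0.174%), and at an unadjusted p under 0.05 in 3 of them, Pttg1, Ube2c and Ndc80, against 8.47% of all genes.

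Whether recovery with the IP differed between WT, F266A and the line without tagged protein was compared by the difference between lines in IP minus input. In this limma fit each of the 3 pairs of lines had 0 of the 34 genes and 0.0% of all genes past the threshold, and 0 of the 34 had an unadjusted p under 0.05, against 2.65% of all genes for WT against F266A, 1.77% for WT against the empty vector and 2.48% for F266A against the empty vector. The median of the 34 differences was -0.17 for WT minus F266A (all genes -0.09), -0.12 for WT minus the empty vector (all genes 0.01) and 0.07 for F266A minus the empty vector (all genes 0.10). Without F266A IP 1 the counts were 0 of the 34 and 0 of all genes in each pair of lines. With a median SE of 0.21, differences of this size could not be told from 0. Among the 34 genes, Spc25 had the lowest difference of WT from F266A, -0.88 (95% confidence interval -1.87 to 0.11), in which the split of the WT pair enters. Mad2l1 was at -0.46 (95% confidence interval -0.92 to 0.0029), Birc5 at -0.54 (-1.48 to 0.40) and Cdca8, in the other direction, at 0.35 (-0.20 to 0.90). The comparisons share libraries and are not independent.

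The rule of the study, which takes a gene when the lower score of a line is above 0 and above all 4 scores of the other lines, has no error term and was applied to each line in turn. It was applied here to log2 (RPKM + 1) differences of the deposited gene symbols, whereas the study scored a wider transcriptome with added lincRNA predictions, so its counts are not those of the study. For WT it took 1 of the 34 genes, Cdca8, against 4.79% of all symbols. Unlike the 34 genes, all symbols include those too low to be tested. The scores of Cdca8 were 0.86 and 0.55 for WT, 0.51 and 0.45 for the empty vector and 0.35 and 0.36 for F266A, and the lower WT score cleared the highest other score by 0.03. With the mean of the 3 inputs as a common input the rule took Pttg1 and not Cdca8. With the empty vector in the place of WT the rule took Ccnb2 and Tpx2 (background 3.96% of all symbols). For F266A it took 13 genes, Plk1, Aurka, Incenp, Birc5, Bub1, Mad2l1, Cenpa, Cenpe, Spc25, Kif11, Kif23, Ect2 and Cdc20, against 13.6% of all symbols and 23.5% of the genes tested. With each library's scores centred on their median the F266A count was 3, Bub1, Mad2l1 and Spc25, against 690 of the 24132 symbols. Without F266A IP 1 the F266A count was 18, against 6048 of all symbols, since a single score then had to clear the others. The genes nearest the threshold for F266A were Aurka and Ect2 inside it, by 0.00099 and 0.0018, and Nuf2 and Kif20a outside it, with margins of -0.0077 and -0.00995.

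Other genes of the cell cycle are counted for comparison. Of 71 further mitotic genes, 70 were tested, and in IP against input 57 rose and 0 fell, with a median of 0.31 beside 0.30 for all genes, of which 63.8% rose, Cenph, Bub3 and Pkmyt1 having the smallest adjusted p. Of 56 DNA replication genes, 50 rose and 0 fell, with a median of 0.39, led by Rpa2, Orc6 and Mcm3. In F266A against the empty vector line, 12 of the 56 replication genes were lower and 0 higher, against 11.3% of all genes lower and 5.45% higher, led by Mcm6 (-0.56), Pold1 (-0.40) and Uhrf1 (-0.42), and 5 of the 70 further mitotic genes were lower and 1 higher, both shares below those of all genes, with Mybl2, a transcription factor of G2/M genes, at -0.66, the kinetochore subunit Spc24 at -0.65 and the anaphase-promoting complex subunit Anapc5 at -0.34. In WT against F266A, 3 replication genes and 4 further mitotic genes were higher in WT and 0 lower, shares below the 7.25% of all genes higher in WT, and in WT against the empty vector 0 of either list differed (limma). Of the 34 mitosis and G2/M genes, 3 in 34 differed between F266A and the empty vector, a share below the 16.7% of all genes.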

How the data were processed

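The authors crosslinked cells with formaldehyde, purified tagged WDR5 by FLAG and then HA, amplified the RNA with an Ovation kit, mapped 50-nt reads with TopHat 1.1.3 to mm9 and deposited RPKM per gene symbol, computed with their own script. The deposited RPKM are already divided by length and mapped reads, so no count test was used, and the estimated depths cover counting error only. Samples were grouped by their labels. IP against input (line as covariate), levels of lines (fraction as covariate) and IP minus input between lines (1 coefficient per line and fraction) were compared on log2 (RPKM + 1) in limma 3.58.1 (R 4.3.3, eBayes with trend) over the 9787 genes whose RPKM reached 1 in 2 or more libraries, at a Benjamini-Hochberg adjusted p under 0.05. The spread in the last fit comes from the 3 pairs of IPs. The procedure was also run on simulated data with independent Gaussian errors in every library. No mismatched library and no shift shared by all genes in the IPs was simulated, so the run does not bear on those features. Lengths, overlaps and positions came from GENCODE M1 (mm9), copies from BLAST 2.17.0 of the longest mRNAs against mm9, and promoters from RefSeq. Python 3.11.15 was used for the rest. All 34 genes are named. Full values are given for genes past a threshold (at most the 10 smallest adjusted p), the highest gene of each role, and the 2 highest and 2 lowest mean scores, and Ndc80 was added after its values were seen. The genes and lists were chosen with earlier results of these data known. Replicate numbers 1 and 2 recur in the labels of the lines, but the deviations of same-numbered IPs correlated by 0.11, 0.01 and 0.26, so the numbers were not taken to pair samples. Pseudocounts, filters, scalings, fits and left-out libraries were varied.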

Additional observations from a re-analysis of the deposited data

How the results depend on the processing

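The spread rests on 1 input per line and 3 pairs of IPs, which limits the power for IP minus input. For 19 genes given in full, Ndc80 not among them, values were followed under other settings. They covered IP against input and the level differences that were called. Of these values, 256 kept direction and side of the threshold, 48 lost their call and 14 turned. In IP against input, 2 of the 34 genes were called under each of quantile normalization, median centring and a same share of reads on genes (an alternative added after seeing the data), against 32 as reported, and 616, 880 and 678 of all genes against 6297. Under these 3 in turn Ccnb2 was at -0.20, -0.032 and -0.10, Cenpf at -0.30, -0.20 and -0.24, and Mki67 at -0.42, -0.26 and -0.33. Anln was at -0.090 and -0.0067 and Top2a at -0.16 and -0.035 under the first and the last. With the replicate number as a block, Mki67 was at -0.022, 29 genes were called in IP against input, and WT against F266A by level called 2 genes, Mad2l1 and Birc5, against 1. The block changed no other count of the 34 genes by over 1.5 times. The cause of these changes was not tested.

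With IPs alone, and so without subtracting the input, 1 gene, Mad2l1, differed between WT and F266A and between F266A and the empty vector, against 0 for IP minus input and 3 by level for the latter, and the counts of all genes were 114 and 447. Leaving out 1 IP in turn gave 29 to 32 genes in IP against input, 1 to 2 in WT against F266A by level, where the second gene was Nusap1 without WT IP 1 and Birc5 without F266A IP 1, and 2 to 4 in F266A against the empty vector by level. Over all genes these level comparisons called 575 to 1800 (976 as reported) and 804 to 2531 (1635 as reported), highest without F266A IP 1, and WT against the empty vector called 0 to 61 (17 as reported). For IP minus input, all-gene counts of 0 became 33, 45 and 22 without the filter on low values (WT against F266A, WT against the empty vector, F266A against the empty vector), and 88 for the last with a pseudocount of 0.1, with 0 of the 34 among them.

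For the rule of the study, the empty vector count of 2 became 5 with median-centred scores, 10 with a common input and 2 to 6 when an IP was left out. Over all 24132 symbols the counts were 955 as reported, then 733, 1494 and 1184 to 2609 in the same order. The WT count of 1 (Cdca8) was also 1 with a common input, but the gene was Pttg1, and became 2 with a pseudocount of 0.1 and 1 to 3 without an IP. All symbols gave 1157 as reported, then 1054, 1270 and 1426 to 3354 in the same order. The F266A count of 13 became 3 with median-centred scores, 8 with a common input and 14 to 18 without an IP. For all symbols it was 3272 as reported, then 690, 2244 and 3824 to 6960 in the same order. A 2-fold threshold on the log2 (RPKM + 1) scale called 0 of the 34 between the WT and F266A inputs, against 2 at 1.5-fold. The RPKM of Birc5 differed there by a ratio of 2.40. Between the F266A and empty vector inputs, Birc5 and Mad2l1 were called at 2-fold too, with 263 of all 9787 genes. With a pseudocount of 0.1 the 1.5-fold threshold called 3 of the 34 in both pairs. Nusap1 was added for WT against F266A and Ndc80 for F266A against the empty vector, with 1718 and 1838 of all genes.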
